A study of Homo sapiens with 6 samples.

Results

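The genes described here are 30 human genes of cholesterol and fatty acid synthesis and of their control by sterol regulatory element-binding proteins (SREBPs). They were chosen by gene symbol for their place in the pathway, with earlier results of these data known. Each matched a single gene ID, so the set makes up 30 of the 58735 gene IDs in the count table, and all 30 passed the low-count filter that left 14370 genes for testing. The values come from HCT116, an established human colorectal carcinoma line. Poly(A)-selected RNA was sequenced from 3 libraries of cells with SETD8 overexpression and 3 libraries of cells with an empty vector, whose genotype label is WT. SETD8 is a histone lysine methyltransferase whose gene is now named KMT5A, and the title of the series concerns its methylation of the coactivator YAP. The labels describe lentiviral delivery and puromycin selection of stable clones in both groups, whereas the design text speaks of transfection. The sources used here give neither the number of clones in a library nor the promoter of the construct. Whether replicates are separate cultures is not stated, so the p-values rest on the spread between libraries, and that spread may be technical.

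Sterols are built from acetyl-CoA through mevalonate and the isoprenoid farnesyl diphosphate to squalene, which is closed into lanosterol and then trimmed to cholesterol. Fatty acids are built from the same acetyl-CoA, after carboxylation to malonyl-CoA, and are then elongated and desaturated. Both routes are controlled by SREBPs, transcription factors that are held in the endoplasmic reticulum membrane by SCAP and INSIG proteins when sterols are plentiful. They are released to the nucleus when sterols run low, and SREBP2 favours the sterol genes while the main SREBP1 form of most tissues favours the fatty acid genes. Colorectal carcinoma cells, like other proliferating cells, use both routes to make membranes.

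Libraries held 17056672 to 18785454 counts in the SETD8 group and 17187722 to 20471843 in the vector group. The members took 0.61% to 0.676% of all counts in SETD8 libraries and 0.593% to 0.638% in vector libraries. KMT5A, the overexpressed gene, had 65.4, 66.2 and 75.5 CPM (counts scaled to library size with TMM factors) in SETD8 replicates 1, 2 and 3, against 45.9, 47.3 and 53.9 CPM in vector replicates 1, 2 and 3. Its log2 fold change was 0.49 (edgeR adjusted p = 0.0156, SE 0.10). It lay between 0.43 and 0.57 when single libraries were left out, and its call was lost when that library was SETD8 replicate 1, 2 or 3 or vector replicate 2, at edgeR adjusted p of 0.0661, 0.0579, 0.0949 and 0.0965. On the first principal component of all tested genes, which held 46.4% of the variance, SETD8 libraries stood at -23.8 to -16.5 and vector replicates 2 and 3 at 25.7 and 39.3, with vector replicate 1 between them at -0.94. Mitochondrial transcripts took 4.91% to 5.36% of counts in SETD8 libraries and 5.95% to 7.77% in vector libraries, and their part in the results below was not tested. The epithelial markers EPCAM, CDH1, KRT8, KRT18, KRT19 and CDX2 were expressed, with the 9 epithelial markers summing to 11260 to 12720 CPM in SETD8 and 10770 to 13290 CPM in vector libraries, mostly from KRT8, KRT18 and KRT19. CDH1, the cell adhesion protein E-cadherin, was the single epithelial marker called. It had 76.5, 86.8 and 78.7 CPM in SETD8 replicates 1, 2 and 3, against 92.5, 129.9 and 129.4 CPM in vector replicates 1, 2 and 3, and fell by 0.54 on the log2 scale (edgeR adjusted p = 0.0218, SE 0.12), more than any of the 30 genes. Whether the CDH1 call holds with single libraries left out was not examined, and its part in the results below was not tested. CDX1 had 0 counts, and the colonic markers VIL1 and CEACAM5 averaged under 0.1 CPM in both groups. The 7 fibroblast, 4 endothelial and 5 immune markers summed to at most 4.83, 1.80 and 0.466 CPM in any SETD8 library and 7.20, 2.25 and 0.948 CPM in any vector library. The 4 adipocyte and 4 hepatocyte markers, from cell types known for high lipid synthesis, summed to at most 0.0582 and 0.053 CPM in SETD8 libraries and 0.109 and 0.0545 CPM in vector libraries.

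Sterol and fatty acid genes differed little between SETD8 and vector libraries. Of the 30 members, 1 was called lower, LSS, and 0 were called higher (edgeR quasi-likelihood test, adjusted p under 0.05 over all genes tested). That is 3.33% of the members, against 7.83% of all tested genes called in either direction, 4.75% lower and 3.08% higher. Before adjustment, p lay under 0.05 for 3 members, HMGCS1, IDI1 and LSS, against 26% of all tested genes. Log2 fold changes of the members ran from -0.35 for HMGCS1 to 0.26 for IDI1, with 15 members below 0 and 15 above. Their median was 0.002, beside 0 over all tested genes, and the median size of a change regardless of sign was 0.118 for members and 0.200 for all tested genes. The comparisons with all tested genes were not matched for level. The groups did not overlap for 8 members, 4 on each side. Of all tested genes, 30.3% had groups that did not overlap, 14.4% with SETD8 higher and 15.9% with SETD8 lower. Overlap was judged on TMM-scaled CPM, and its absence for SREBF2, SCAP and ACACA, all lower, depended on that scaling. In these bulk samples, fewer cells with a transcript and less of that transcript per cell cannot be told apart.

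Intervals were narrow for most members. The 95% interval of the log2 fold change, computed with 4 residual degrees of freedom and hence wider than one based on the moderated edgeR fit, lay inside a 1.5-fold change in either direction for 27 of 30 members. Over all tested genes, 46.1% of intervals lay inside the same bounds. Those genes were not matched to the members for level, and 20 of the 30 members lay above the 75th percentile of level per length. The 3 members whose intervals reached past 1.5-fold were HMGCS1, STARD4 and CYP51A1, and the outermost bounds were -0.71 for HMGCS1 and 0.65 for CYP51A1. The median SE was 0.10 for members and 0.14 for all tested genes. A member with 3 counts in a library would have stood at 0.155 to 0.175 CPM in the SETD8 group and 0.15 to 0.173 CPM in the vector group. The lowest count of any member in any library was 231. Such floors cover counting error only.

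**Figure D1:**
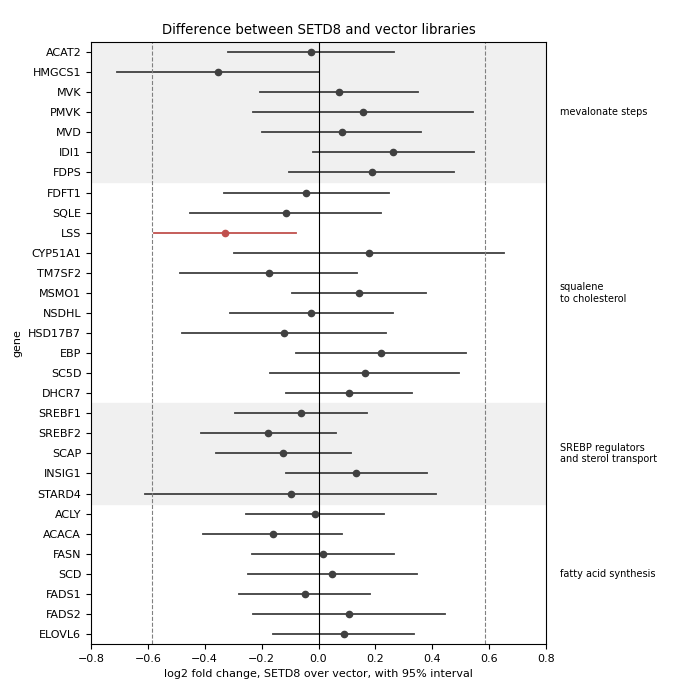
Log2 fold change of SETD8 over vector for each of the 30 genes, grouped by role (vertical axis), with the 95% interval as a line. Dashed lines mark a 1.5-fold change in either direction (log2 0.585), and the gene called at an adjusted p under 0.05, LSS, is in red. The points lie between -0.35 and 0.26, and 27 intervals stay between the dashed lines.

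The genes differed far more from each other in level than between the groups. Per length, as CPM per kilobase of union exon length (RPKM), the members spanned the 27.5th to the 98.9th percentile of tested genes, and 20 of 30 lay above the 75th percentile. The fatty acid genes held both ends of the order. FASN, the multifunctional fatty acid synthase, stood at 216 ± 6.06 RPKM in SETD8 and 214 ± 6.83 RPKM in vector libraries (SD, n = 3 each). SCD, the desaturase that makes oleate from stearate, stood at 213 ± 24.0 RPKM in SETD8 and 206 ± 18.4 RPKM in vector libraries, so the levels of FASN and SCD did not differ beyond their spread. Together FASN and SCD held 50% of all counts assigned to the members. ACLY, which supplies cytosolic acetyl-CoA from citrate, followed at 93.9 ± 4.15 RPKM in SETD8 and 94.7 ± 6.51 RPKM in vector libraries, ahead of the sterol regulator SREBF2 at 60.6 ± 4.05 RPKM in SETD8 and 68.5 ± 1.40 RPKM in vector libraries. DHCR7, which catalyses the last reduction of a major route to cholesterol, was next at 52.5 ± 1.79 RPKM in SETD8 and 48.7 ± 1.87 RPKM in vector libraries. At the low end, FADS2, the first desaturase of polyunsaturated fatty acid synthesis, stood at 1.39 ± 0.06 RPKM in SETD8 and 1.29 ± 0.06 RPKM in vector libraries. Its neighbour FADS1, a later desaturase of that route, stood higher at 7.36 ± 0.26 RPKM in SETD8 and 7.61 ± 0.16 RPKM in vector libraries. HSD17B7 and STARD4 were the other members under 4 RPKM, at 2.95 ± 0.19 and 3.07 ± 0.32 RPKM in SETD8 libraries and 3.20 ± 0.31 and 3.28 ± 0.92 RPKM in vector libraries, and these levels overlapped each other. Union exon lengths count rarely used exons, so levels of genes with long alternative exons are understated.

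**Figure D2:**
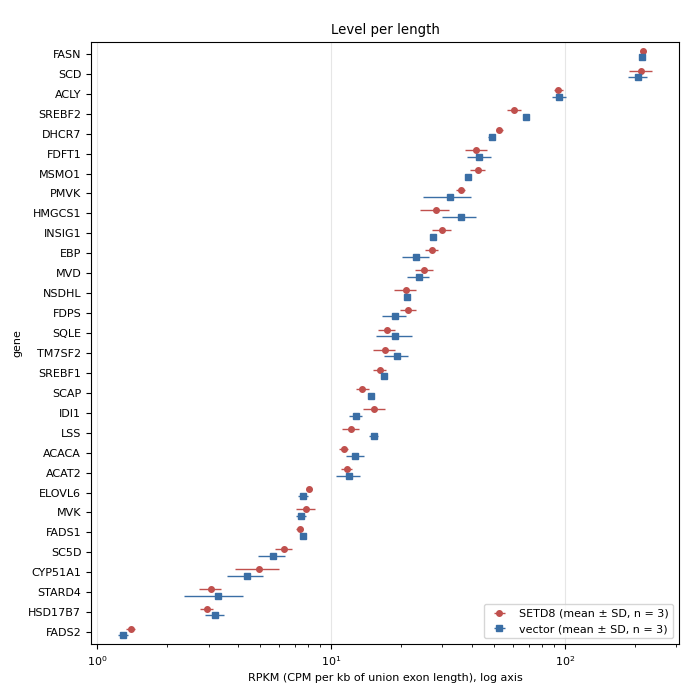
Mean level per length (RPKM, log axis) with SD of 3 libraries in SETD8 (circles, upper of each pair) and vector (squares), with genes ordered by level. Levels run from about 1.3 RPKM for FADS2 to about 214 RPKM for FASN, and the paired symbols of each gene lie close together.

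The mevalonate steps, which turn acetyl-CoA into farnesyl diphosphate, had 0 calls among 7 genes and a median log2 fold change of 0.08. HMGCS1, the cytosolic HMG-CoA synthase, had 130.0, 152 and 114 CPM in SETD8 replicates 1, 2 and 3, against 136, 190 and 180 CPM in vector replicates 1, 2 and 3. The groups overlapped, because vector replicate 1 stood at the SETD8 level while the other vector libraries stood above every SETD8 library. The mean was 132 ± 18.7 CPM in SETD8 and 169 ± 28.3 CPM in vector libraries (SD, n = 3 each). The log2 fold change was -0.35 (edgeR adjusted p = 0.105, SE 0.13) and did not pass the test. Without vector replicate 1 the log2 fold change of HMGCS1 was -0.49 and it passed (edgeR adjusted p = 0.00169), and it also passed when low counts were not filtered (-0.35, edgeR adjusted p = 0.00883).

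IDI1, which interconverts the isomeric isopentenyl diphosphates, had 70.0, 71.5 and 58.6 CPM in SETD8 replicates 1, 2 and 3, against 53.4, 59.9 and 53.5 CPM in vector replicates. Only SETD8 replicate 3 fell inside the vector range, and the log2 fold change of 0.26 (SE 0.10) did not pass (edgeR adjusted p = 0.125). PMVK, the phosphomevalonate kinase, had 44.3, 45.5 and 47.9 CPM in SETD8 libraries, against 51.2, 40.0 and 32.3 CPM in vector libraries. The vector libraries of PMVK lay on both sides of the SETD8 libraries, so its log2 fold change was 0.16 (edgeR adjusted p = 0.506, SE 0.14) with all libraries and 0.34 without vector replicate 1, when it passed (edgeR adjusted p = 0.0322). FDPS, the farnesyl diphosphate synthase, had 77.3, 74.5 and 86.8 CPM in SETD8 libraries and 73.8, 75.2 and 60.5 CPM in vector libraries, with a log2 fold change of 0.19 (edgeR adjusted p = 0.273, SE 0.10). The 8 numbered FDPS pseudogenes held at most 3 counts each over all 6 libraries. ACAT2, the cytosolic thiolase of the first condensation (log2 fold change -0.03), MVK, the mevalonate kinase (0.07), and MVD, the decarboxylase (0.08), had overlapping groups and adjusted p of 0.906, 0.687 and 0.648. On the opposite strand to ACAT2, exons of other genes cover 52.3% of its exonic bases. TCP1 covers 9.2% and had 41279 counts over the 6 libraries against 5667 for ACAT2. Gene IDs named SOD2 and SOD2-OT1 cover 26.5% and 33.9% and were listed at 1 and 0 counts. Without a known strand setting the ACAT2 value is uncertain. Opposite-strand genes also cover 15.0% of the exonic bases of HMGCS1, 14.8% of IDI1 and 18.6% of FDPS, and held 1, 8 and 83 counts. MVK shares 4.7% of its exonic bases with MMAB on the opposite strand, which held 3213 counts against 5533 for MVK.

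From squalene to cholesterol, LSS was the single call among 11 genes, and the median log2 fold change was -0.02. LSS, the lanosterol synthase that closes squalene epoxide into the sterol ring system, lies on chromosome 21 (ENSG00000160285, 46188141 to 46228824 of GRCh38, minus strand). It had 83.7, 96.5 and 83.5 CPM in SETD8 replicates 1, 2 and 3, against 108, 116 and 107 CPM in vector replicates 1, 2 and 3. Every SETD8 library lay below every vector library. The means were 87.9 ± 7.47 CPM in SETD8 and 110 ± 4.79 CPM in vector libraries (SD, n = 3 each), so LSS fell by 0.33 on the log2 scale (edgeR adjusted p = 0.0432, SE 0.09), a level 0.797 times that of vector. The call held in 9 of 15 alternative settings. It was lost with library totals in place of TMM (edgeR adjusted p = 0.0664) and with length correction (0.0650). Leaving out each SETD8 library in turn also ended the call, at 0.190, 0.0711 and 0.190 for replicates 1, 2 and 3, as did leaving out vector replicate 2, at 0.200 (edgeR adjusted p). The log2 fold change stayed between -0.40 and -0.27 over all 15. Antisense genes cover 7.9% of the exonic bases of LSS and held 0 and 16 counts over the 6 libraries, against 11044 for LSS. The LSS value may therefore also depend on the unknown strand setting.

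The enzymes on either side of LSS did not pass the test. FDFT1, the squalene synthase, had 221, 239 and 193 CPM in SETD8 libraries, against 215, 254 and 204 CPM in vector libraries, with a log2 fold change of -0.04 (edgeR adjusted p = 0.830, SE 0.10). SQLE, the squalene epoxidase that makes the substrate of LSS, had 72.9, 81.7 and 69.7 CPM in SETD8 libraries, against 65.4, 93.0 and 84.8 CPM in vector libraries, with a log2 fold change of -0.12 (edgeR adjusted p = 0.577, SE 0.12). Vector replicate 1 was the lowest of the 6 libraries for SQLE, and vector replicate 2 the highest. CYP51A1, which removes the first methyl group from lanosterol, had 13.8, 21.5 and 17.9 CPM in SETD8 libraries, against 18.8, 14.3 and 13.9 CPM in vector libraries (log2 fold change 0.18, SE 0.17, edgeR adjusted p = 0.540). In GENCODE 29, 79.4% of the exonic bases of CYP51A1 also belong to an overlapping gene on the same strand, which was listed at 0 counts. Reads in such shared exons can be dropped in counting, so the low level of CYP51A1 is uncertain. Its pseudogenes CYP51A1P2 and CYP51A1P1 held 3.83% and 1.02% as many counts as the gene itself.

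The sterol enzymes after CYP51A1 had log2 fold changes on both sides of 0. MSMO1, the sterol methyl oxidase, had 117, 133 and 118 CPM in SETD8 libraries, against 109, 115 and 110.5 CPM in vector libraries, and DHCR7 had 220.4, 224 and 210.0 CPM in SETD8 libraries, against 205, 209 and 194 CPM in vector libraries. EBP, the sterol isomerase, had 69.5, 62.0 and 63.5 CPM in SETD8 libraries, against 59.0, 60.9 and 47.4 CPM in vector libraries. The groups of MSMO1, DHCR7 and EBP did not overlap, with SETD8 above vector, yet none passed, at log2 fold changes of 0.14 (SE 0.09), 0.11 (SE 0.08) and 0.22 (SE 0.11) and edgeR adjusted p of 0.303, 0.413 and 0.215. The other members had overlapping groups. They were TM7SF2, a sterol reductase (log2 fold change -0.17), NSDHL, a sterol dehydrogenase (-0.02), HSD17B7, a ketosteroid reductase (-0.12), and SC5D, a sterol desaturase (0.16), with edgeR adjusted p of 0.344, 0.907, 0.588 and 0.415. HSD17B7 has an unprocessed pseudogene, HSD17B7P2, that held 4.96% as many counts, so the split of reads between them is uncertain.

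Genes of the SREBP switch had 0 calls among 5 members and a median log2 fold change of -0.10. SREBF2, which encodes SREBP2, had 456, 490 and 429 CPM in SETD8 replicates 1, 2 and 3, against 517, 529 and 508 CPM in vector replicates 1, 2 and 3. The groups did not overlap, and the log2 fold change of -0.18 (SE 0.09, 95% interval -0.41 to 0.06) did not pass (edgeR adjusted p = 0.210). SREBF1, which encodes SREBP1, had 124, 140 and 125 CPM in SETD8 libraries, against 132, 140 and 135 CPM in vector libraries, with a log2 fold change of -0.06 (edgeR adjusted p = 0.683, SE 0.08). RAI1 on the opposite strand covers 6.9% of the exonic bases of SREBF1 and held 6429 counts against 14756 for SREBF1, so without a known strand setting its value carries the same uncertainty as that of ACAT2. Per length, SREBF2 stood above SREBF1 in both groups, with SREBF1 at 16.2 ± 1.07 RPKM in SETD8 and 16.9 ± 0.51 RPKM in vector libraries. SCAP, the escort of SREBPs out of the endoplasmic reticulum, had 91.4, 81.1 and 90.7 CPM in SETD8 libraries, against 95.2, 98.2 and 93.3 CPM in vector libraries. INSIG1, a retention factor that is itself an SREBP target, had 102, 121 and 105 CPM in SETD8 libraries, against 101, 100.3 and 98.1 CPM in vector libraries. Neither group pair overlapped, with SCAP lower and INSIG1 higher in SETD8 libraries, at log2 fold changes of -0.12 (SE 0.09) and 0.13 (SE 0.09) that did not pass (edgeR adjusted p = 0.382 and 0.367). STARD4, a soluble carrier of cholesterol, had 18.4, 18.5 and 15.3 CPM in SETD8 libraries, against 12.6, 21.4 and 21.9 CPM in vector libraries. Its highest vector library was 1.74 times its lowest, the widest such ratio among the members, and its log2 fold change was -0.10 (edgeR adjusted p = 0.775, SE 0.18).

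Promoter sequences are shown for the called gene LSS, for HMGCS1, which had the most negative value, and for SREBF2, as the regulator. They are the 250 bases before a RefSeq transcript start, on the strand of the gene in GRCh38.p14, at chr21:46228775-46229024 (minus strand) for LSS, chr5:43313413-43313662 (minus strand) for HMGCS1 and chr22:41832855-41833104 (plus strand) for SREBF2. Capitals mark the CCAAT box, bound by the factor NF-Y that works with SREBPs, read as ATTGG on the other strand, and the sterol regulatory element searched as TCACNCCAC.
LSS: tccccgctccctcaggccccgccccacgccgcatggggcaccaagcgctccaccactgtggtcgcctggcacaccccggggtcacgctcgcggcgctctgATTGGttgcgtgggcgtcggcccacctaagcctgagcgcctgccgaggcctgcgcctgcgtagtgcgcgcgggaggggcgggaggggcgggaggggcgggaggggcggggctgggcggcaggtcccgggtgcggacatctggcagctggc
HMGCS1: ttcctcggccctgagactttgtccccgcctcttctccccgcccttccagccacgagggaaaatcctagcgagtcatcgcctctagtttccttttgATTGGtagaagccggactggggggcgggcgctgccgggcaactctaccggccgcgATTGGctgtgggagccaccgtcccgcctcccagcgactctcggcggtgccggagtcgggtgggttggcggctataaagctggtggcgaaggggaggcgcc
SREBF2: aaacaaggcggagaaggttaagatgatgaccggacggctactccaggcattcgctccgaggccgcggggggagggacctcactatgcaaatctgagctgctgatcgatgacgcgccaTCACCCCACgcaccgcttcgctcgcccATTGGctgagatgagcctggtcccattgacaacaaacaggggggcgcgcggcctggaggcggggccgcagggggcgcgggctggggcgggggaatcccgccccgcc
The LSS stretch holds a single CCAAT box, that of HMGCS1 holds 2, and that of SREBF2 holds a single one downstream of its sterol regulatory element. The stretch before another RefSeq start of HMGCS1, at chr5:43313182-43313431 and not shown, holds neither motif.

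Over both strands of the 300-base windows in the RefSeq promoter table (250 bases before and 50 after each start), which cover 26 of the 30 members, 20 member genes (76.9%) held a CCAAT box in at least 1 window, against 39.72% of the 27305 genes in the table. The sterol regulatory element as spelled was found in the window of 1 member, SREBF2 (3.8%), against 1.39% of genes in the table. The palindrome CACGTG was found in 4 members (15.4%), against 8.77% of genes, and the GC box GGGCGG in 25 members (96.2%), against 48.3% of genes. The genes in the table were neither limited to tested genes nor matched to the members for level. No promoter was searched for ACAT2, FASN, FDFT1 and SQLE. The counts above describe letters in a window. A window without the strict spelling can still hold a variant of the element, and the members without a CCAAT box were CYP51A1, ELOVL6, FADS1, PMVK, SCAP and SREBF1. LSS held both a CCAAT box and a GC box, as did most members that were not called. It was also among the 4 members with CACGTG, beside INSIG1, SC5D and SCAP, which were not called.

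Fatty acid synthesis had 0 calls among 7 genes, with a median log2 fold change of 0.02 and the narrowest range of the member groups, from -0.16 to 0.11. FASN had 1958, 2051 and 2060 CPM in SETD8 replicates 1, 2 and 3, against 2030, 2046 and 1928 CPM in vector replicates 1, 2 and 3. The highest library was 1.07 times the lowest, and the log2 fold change was 0.02 (edgeR adjusted p = 0.933, SE 0.09, 95% interval -0.23 to 0.27). SCD had 1067, 1289 and 1064 CPM in SETD8 libraries, against 988, 1157 and 1160 CPM in vector libraries, with a log2 fold change of 0.05 (edgeR adjusted p = 0.810, SE 0.11). ACLY had 476, 478 and 515 CPM in SETD8 libraries, against 510.5, 516 and 455 CPM in vector libraries, with a log2 fold change of -0.01 (edgeR adjusted p = 0.948, SE 0.09). ACACA, the acetyl-CoA carboxylase that commits carbon to fatty acids, had 142, 155 and 147 CPM in SETD8 libraries, against 155, 159 and 182 CPM in vector libraries. Its groups did not overlap, with SETD8 below vector, but its log2 fold change of -0.16 (SE 0.09) did not pass (edgeR adjusted p = 0.266) and was 0.004 with length correction. Genes called lower over the whole table had a median union exon length of 6764.5 bases, against 3083 bases for those called higher. Over all tested genes the median was 4745 bases. ACACA has 13008 bases and LSS has 7238. The part of length in the ACACA and LSS values was not tested.

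ELOVL6, which elongates palmitate to stearate, had 60.1, 59.8 and 56.8 CPM in SETD8 libraries, against 53.8, 53.7 and 58.8 CPM in vector libraries (log2 fold change 0.09, edgeR adjusted p = 0.563). FADS1 (log2 fold change -0.05, edgeR adjusted p = 0.744) and FADS2 (0.11, edgeR adjusted p = 0.611) lie next to each other on chromosome 11 on opposite strands and share 490 exonic bases. FADS1 had 73.1, 78.2 and 74.4 CPM in SETD8 libraries, against 79.1, 76.0 and 78.4 CPM in vector libraries. FADS2 had 14.6, 15.5 and 15.9 CPM in SETD8 libraries, against 14.1, 15.0 and 13.6 CPM in vector libraries. Reads in the shared bases cannot be assigned to FADS1 or FADS2 without the strand setting. FADS2 also shares 49 bases on its own strand with FEN1, which held 20932 counts over the 6 libraries against 1644 for FADS2.

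The members varied from library to library within both groups. SETD8 replicate 2 was the highest SETD8 library for 20 of 30 members, and over all tested genes it was the highest for 32%. Vector replicate 2 was the highest vector library for 19 of 30 members, and over all tested genes for 23.2%. For 12 members both held, namely ACAT2, HMGCS1, MVD, IDI1, FDFT1, SQLE, LSS, MSMO1, NSDHL, DHCR7, SREBF1 and SREBF2, of which 10 are enzymes of sterol synthesis. Such enzymes also make up most of the set, with 7 mevalonate and 11 squalene to cholesterol genes among the 30. The share of all tested genes for which both held was not computed. These counts were made after the values were seen and carry no test. The median deviation of the members from their own means was -0.02, 0.07 and -0.05 log2 units in SETD8 replicates 1, 2 and 3 and -0.03, 0.04 and -0.07 in vector replicates 1, 2 and 3. Over all tested genes the same median lay between 0.002 and 0.010 in SETD8 libraries and between -0.007 and 0.020 in vector libraries.

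**Figure D3:**
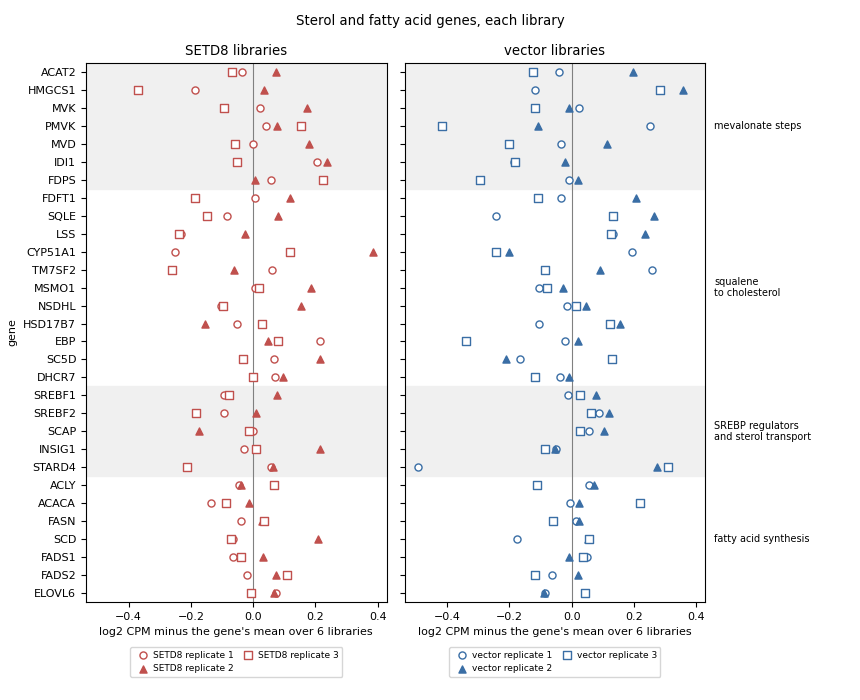
Log2 CPM of each of the 30 genes in each library, minus the mean of that gene over all 6 libraries, with SETD8 libraries on the left and vector libraries on the right. Filled triangles are replicate 2, which lies rightmost of its group for 20 genes in SETD8 and 19 in vector libraries. The vector libraries spread most widely for STARD4, PMVK, SQLE and HMGCS1. The median SD of the members was similar in the groups, at 0.107 in SETD8 and 0.112 in vector libraries.

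Summed by role, the spread of one group lay largely across the other. The mevalonate genes summed to 536, 582 and 513 CPM in SETD8 replicates 1, 2 and 3, against 526, 596 and 518 CPM in vector replicates. The squalene to cholesterol genes summed to 950.5, 1015 and 894 CPM in SETD8 libraries, against 938, 1015 and 914 CPM in vector libraries. The fatty acid genes, dominated by FASN and SCD, summed to 3791, 4126 and 3933 CPM in SETD8 libraries, against 3831, 4022 and 3876 CPM in vector libraries. The SREBP regulators with STARD4, dominated by SREBF2, were the exception with TMM scaling, with no overlap. They summed to 792, 850 and 765 CPM in SETD8 libraries, against 857, 888 and 856 CPM in vector libraries. The gap, between 850 CPM in SETD8 replicate 2 and 856 CPM in vector replicate 3, depended on that scaling. Among single tested genes, 30.3% had groups that did not overlap, and the share for summed sets was not computed. The median within-group SD of log2 CPM was 0.107 for members and 0.123 for all tested genes in SETD8 libraries, and 0.112 for members and 0.184 for all tested genes in vector libraries, without matching for level.

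**Figure D4:**
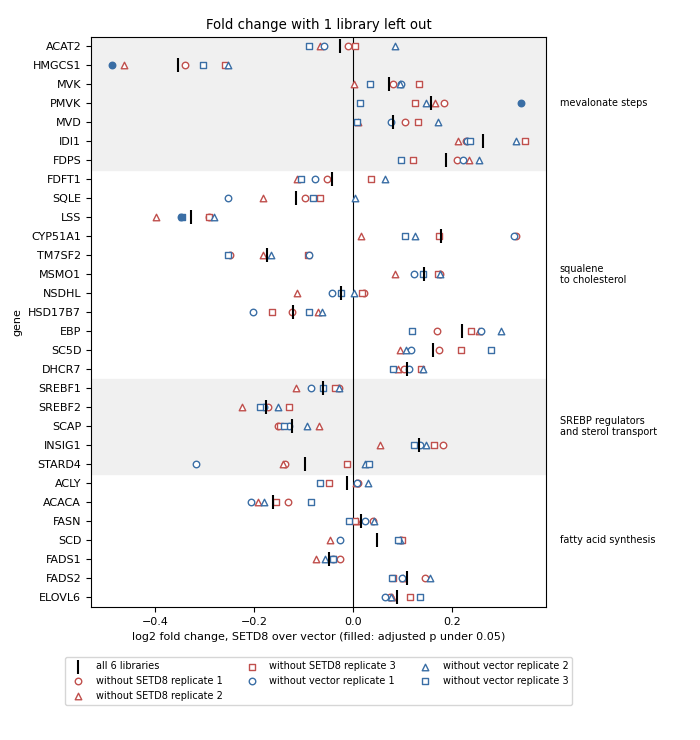
Log2 fold change of SETD8 over vector for each gene with all 6 libraries (black bar) and with each library left out in turn (symbols, red for a SETD8 library and blue for a vector library left out), filled where the adjusted p was under 0.05. Filled symbols appear for LSS without vector replicate 1 or 3, and for HMGCS1 and PMVK without vector replicate 1.

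Further genes of lipid synthesis, sterol regulation and isoprenoid use gave 1 higher and 2 lower among 63 tested of 64, which is 4.76%, against 7.83% of all tested genes. All 3 calls were in the list of fatty acid supply, elongation and activation, where they made up 13% of 23 tested genes. ACSS2, which makes acetyl-CoA from acetate, had 45.7, 46.6 and 42.4 CPM in SETD8 libraries, against 52.8, 70.2 and 56.9 CPM in vector libraries, and fell by 0.42 on the log2 scale (edgeR adjusted p = 0.0411, SE 0.11). ACACB, the mitochondrial-membrane acetyl-CoA carboxylase whose product restrains fatty acid oxidation, had 5.72, 6.63 and 6.52 CPM in SETD8 libraries, against 8.88, 9.28 and 10.4 CPM in vector libraries, and fell by 0.60 on the log2 scale (edgeR adjusted p = 0.0374, SE 0.16). MID1IP1, which promotes the polymerisation of acetyl-CoA carboxylase, had 108, 126 and 118 CPM in SETD8 libraries, against 101, 85.0 and 80.4 CPM in vector libraries, and rose by 0.40 on the log2 scale (edgeR adjusted p = 0.0335, SE 0.10). None of the 3 had overlapping groups. The list of sterol regulation and transport genes had 0 calls among 26 (median log2 fold change -0.002), and 6 of them had an unadjusted p under 0.05, against 26% of all tested genes. The list of isoprenoid branches had 0 calls among 14 (median -0.03), and 0 had an unadjusted p under 0.05. ABCA1 and ABCG1, cholesterol exporters induced by the sterol-sensing liver X receptors, averaged 0.515 ± 0.20 and 0.726 ± 0.22 CPM in SETD8 libraries and 0.588 ± 0.41 and 0.726 ± 0.16 CPM in vector libraries (SD, n = 3 each), near the level of a few counts. The call of ACSS2 was lost under library totals (log2 fold change -0.38, edgeR adjusted p = 0.0545). That of ACACB was lost under library totals, under length correction and when vector replicate 3 was left out, at log2 fold changes of -0.56, -0.42 and -0.53 and edgeR adjusted p of 0.0504, 0.102 and 0.0842. ACSS2, ACACB and MID1IP1 all lost their calls when SETD8 replicate 1, 2 or 3 or vector replicate 2 was left out, where the highest edgeR adjusted p was 0.158, 0.140, 0.174 and 0.220. In those fits the log2 fold change ran from -0.44 to -0.28 for ACSS2, with -0.28 when vector replicate 2 was left out, from -0.64 to -0.53 for ACACB and from 0.35 to 0.46 for MID1IP1.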

How the data were processed

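The authors deposited a table of raw read counts, as whole numbers per gene with a column for each library. Per the submitters' processing notes, the builds were GRCh38 and hg38 and the tools included featureCounts, HTSeq, HISAT2 and STAR. The sources used here do not give their roles, the annotation or the strand setting. Columns named NC were taken as the vector group, as the only group besides SETD8. GENCODE 29 (58735 of 58735 IDs matched) gave symbols, positions, union exon lengths and exon overlaps, and RefSeq (GRCh38.p14) gave promoters. Genes were kept by filterByExpr, scaled by TMM and fitted in edgeR 4.0.16 with limma 3.58.1 under R 4.3.3. The robust quasi-likelihood test was two-sided without covariates, with p-values adjusted after Benjamini and Hochberg over the 14370 genes kept. A gene was called at an adjusted p under 0.05. The SE is the log2 fold change divided by the square root of F. Members, lists and named genes (all members, and up to 4 called genes of each further list) were chosen with earlier results of these data known. Some genes of these pathways are not reported here. Alternatives were DESeq2-type size factors, library totals, no filter, a filter of 1 CPM in each of the 3 libraries of a group, the DESeq2 1.42.0 test, voom, a replicate block, lowess length and GC correction (span 0.3) and leaving out each library. Figures were drawn with matplotlib 3.10.9.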

Additional observations from a re-analysis of the deposited data

How the results depend on the processing

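LSS was the single member called under every alternative that kept all libraries, except that 0 members were called with library totals and with length correction, and 2, HMGCS1 and LSS, both lower, with no low-count filter. Leaving out a library gave 0 to 3 called members, with 0 to 1 higher and 0 to 2 lower. The 3 came without vector replicate 1, and 0 came without vector replicate 2 and without SETD8 replicate 1, 2 or 3. The median log2 fold change of the members ran from -0.023 without SETD8 replicate 2 to 0.070 without vector replicate 2. Over the whole table the counts rested on single libraries, at 11 to 3509 changed genes (1 to 1771 higher and 10 to 1738 lower) with a library left out. They were 11, 155 and 129 without SETD8 replicates 1, 2 and 3 and 3509, 72 and 1093 without vector replicates 1, 2 and 3. With no low-count filter 2000 genes changed, 949 higher and 1051 lower, while 792 were higher and 505 lower with library totals and 702 higher and 882 lower with DESeq2. Library totals moved the median of all genes to 0.043. Of the further pathway genes, 5 were called with no low-count filter, 5 with GC correction, and 0 to 11 with a library left out, 11 of them without vector replicate 1. Each cause was not tested.

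Some members changed sign in the settings given next, and none of them was called in those settings. With library totals the log2 fold change was 0.018 for ACAT2, 0.001 for FDFT1, 0.019 for NSDHL and 0.031 for ACLY. With length correction it was -0.020 for PMVK, 0.018 for SREBF1, 0.004 for ACACA and 0.073 for FADS1. With a library left out, values ran from -0.090 to 0.084 for ACAT2, -0.114 to 0.065 for FDFT1, -0.253 to 0.004 for SQLE, -0.114 to 0.021 for NSDHL, -0.317 to 0.033 for STARD4, -0.066 to 0.031 for ACLY, -0.008 to 0.042 for FASN and -0.046 to 0.098 for SCD. The replicate numbers are shared by the groups, and whether they pair the libraries is not known. Deviations of same-numbered libraries correlated at 0.025, 0.008 and -0.064 across tested genes. Those of differently numbered libraries correlated at -0.095 to 0.092, so these values cannot decide whether the libraries were paired. With the replicate block, 1 member, LSS, was called lower, 4 further pathway genes were called and 1177 genes changed over the whole table.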
